A study of Mus musculus with 2 samples.

Results

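Arg1-positive tumour macrophages were taken here as the tumour-infiltrating macrophages whose droplets held at least 3 unique transcripts (UMIs) of Arg1, the gene of the cytosolic enzyme arginase 1. They numbered 963 cells, out of 7035 macrophages that passed the same gate with any amount of Arg1 and out of 22490 leukocytes kept in all. The gate asked for at least 300 detected genes, at most 10% mitochondrial UMIs, at least 5 UMIs of Lyz2 and at least 1 of Csf1r, no UMI of Cd3e, Cd79a or Flt3, at most 1 of Cd209a, at most 1 of Xcr1 and Clec9a together, and at most 2 of Mki67 and Top2a together. None of these genes is given below as a result. The gate set no limit on monocyte genes, so the gated macrophages below include monocyte-type cells.

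Arginase 1 splits arginine into ornithine and urea. Macrophages switch it on in response to interleukin-4 and interleukin-13, to lactate and low oxygen, and to signals that raise cyclic AMP, and in tumours such cells are known for depleting the arginine that T cells need. Hypoxia-inducible factors, which are stabilised when oxygen is scarce, drive genes of glycolysis and of blood vessel growth such as Vegfa, and type I interferon, made after DNA is sensed in the cytosol, drives a separate set of antiviral genes.

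The cells came from male mice aged 8 to 12 weeks that bore intradermal B16-F10 tumours, an established mouse melanoma line, in both legs. All mice carried R26CreERT2, a tamoxifen-activated Cre recombinase at a locus that is active in nearly all cell types, and all received 1 mg of tamoxifen on 3 days from day 5, with harvest on day 14. The inducible knockout (iKO) had 2 floxed alleles of Trex1, a DNA exonuclease that degrades cytosolic DNA, and the control had 1 floxed and 1 wild-type allele, so the control was heterozygous for the conditional allele. Live CD45-positive cells were sorted, marked with hashtag antibodies as 4 samples per genotype, and sequenced as 1 pool per genotype, which means that an effect of genotype and one of the pool cannot be told apart. The labels do not say that each hashtag was a separate mouse, so the p-values below measure the spread between these hashtagged samples, which may be technical. In the summed counts of the members, Trex1 stood at 1.54 CPM (UMIs scaled to a common library total) in control sample 2 and at 0 in the other 7 samples, so it gave no check of the genotype labels in these cells.

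The deposited matrices held 17111065 to 96457227 UMIs per sample, and the kept cells had a median of 6557 to 14677 UMIs. No barcode was shared between samples of a pool, and counts of same-genotype samples differed by more than sampling noise. In the members, the iKO samples fell into pairs. Chi-square per degree of freedom was 3.4 between samples 1 and 2 and 2.5 between samples 3 and 4. It was 8.8 to 13.6 between samples of different pairs. The tests below treat the 4 iKO samples as independent, and the source of this split was not tested. Members were deeper than the rest of the gate: their median was 17700.8 ± 1234.92 UMIs (SD, n = 4 samples) in iKO and 16158.4 ± 1384.52 in control, against 14646.4 ± 671 and 13411.1 ± 403 in gated macrophages with no Arg1 UMI.

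Arg1 varied widely among the members. Their median was 23 UMIs and the highest cell held 521. The 414 cells with 30 UMIs or more, 43.0% of the members, held 83.8% of the members' Arg1 UMIs, and the members together held 68.5% of all Arg1 UMIs in the kept cells. At the edge of the rule, 70 members had exactly 3 UMIs and 141 gated macrophages had exactly 2, and 5358 gated macrophages had none. Between samples the median was 15.5, 24.5, 15 and 16 UMIs for iKO (samples 1 to 4) and 24, 34, 15.5 and 30 for control (samples 1 to 4), given as a description because Arg1 chose the cells.

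T cells were used to gauge the background of Arg1, and whether they expressed any of it themselves was not tested. They were taken as kept cells with at least 1 UMI of Cd3e, none of Csf1r and under 5 of Lyz2. Cells with Cd3e that also held those myeloid transcripts were not counted, which may make the estimate low. Among kept cells of any kind, 201 had both Cd3e and at least 3 Arg1 UMIs. Of 6755 T cells, 6 reached 3 UMIs (0.0888%), at a median of 10546 UMIs per cell, against 13.7% of the gated macrophages at a median of 14702. At least 1 UMI was seen in 5.26% of T cells. With T cells of at least 5000 UMIs thinned to 5000, that share was 1.48% ± 0.263 in iKO and 5.59% ± 1.87 in control (SD, n = 4), higher in the control pool.

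The members carried the markers of macrophages. Cd68, a lysosomal glycoprotein, was detected in 99.2% of them, Fcgr1, the high-affinity IgG receptor, in 97.1%, Cd14 in 97.4% and Adgre1, which encodes F4/80, in 60.2%. Thinned to 5000 UMIs, the mean shares in iKO and control were 93.6% and 90.6% of members for Cd68, against 10.4% of T cells in each genotype. For Adgre1 they were 42.0% and 27.4% of members against 1.67% and 0.864% of T cells, for Fcgr1 94.95% and 79.5% against 6.63% and 4.15%, and for Cd14 87.0% and 93.3% against 6.03% and 15.9%. The 4 genes named together with Arg1 for this population, the elastase Mmp12, the angiogenic factor Vegfa, the hypoxia-responsive Ndrg1 and the activin subunit Inhba, were present but not in every cell. Mmp12 was detected in 30.4% ± 7.33 of the iKO and 28.3% ± 8.13 of the control members per sample, Vegfa in 64.5% ± 3.85 and 76.9% ± 6.33, Ndrg1 in 70.4% ± 5.09 and 76.2% ± 7.17, and Inhba in 36.4% ± 7.12 and 40.4% ± 16.7 (SD, n = 4). After thinning to 5000 UMIs the lowest genotype mean among these in members was 21.3% for Mmp12 in control, against 2.78% in control T cells, the lowest single sample was 12.2% for Inhba in control, and the highest mean T cell share of the 4 genes was 6.88%, for Ndrg1. These genes were chosen for the population, so their values are given as a description. Markers of mast cells and basophils were all at 0, the 4 fibroblast markers summed to at most 2.01 CPM and the 3 erythroid ones to at most 2.57 CPM per sample. Other lists were higher. Neutrophil markers summed to as much as 1223 CPM, with S100a9 detected in 72.2% of members. S100a8 was at 571 CPM in iKO sample 2 and at 29.3 to 35.9 CPM in the other iKO samples. Thinned to 5000 UMIs, S100a8 was in 18.55% of iKO and 40.0% of control members. The shares of T cells were 18.65% and 43.8%. The highest sums were 122 CPM for NK cell, 79.5 for T cell, 60.4 for endothelial, 28.3 for dendritic cell, 25.95 for melanoma and 8.10 for B cell markers.

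Arg1-positive cells made up a smaller share of gated macrophages in every iKO sample than in any control sample. In sample order they were 6.13%, 7.89%, 10.2% and 9.18% for iKO and 15.7%, 26.9%, 14.2% and 33.7% for control, or 8.36% ± 1.77 against 22.6% ± 9.31 (SD, n = 4 each). The control share was 2.71 times the iKO share, and the 2 groups did not overlap (two-sided exact permutation p = 0.0286, the smallest that 4 against 4 samples can give, and 0.0857 after adjustment over the 3 shares tested). The exact binomial 95% intervals, which cover counting error only, overlapped for the nearest pair of samples: 7.78 to 13.1% in the highest iKO sample and 11.1 to 17.8% in the lowest control sample. With cells thinned to 5000 UMIs and the gate applied again, the difference was −9.78 percentage points (exact permutation p = 0.0286, n = 4), beside −14.2 unthinned. Thinning left out cells under 5000 UMIs, 139 to 418 kept cells per iKO sample and 408 to 1106 per control sample. Of the gated macrophages it left out 7 to 41 per iKO sample and 20 to 47 per control sample. The Arg1 background in T cells was higher in the control pool, and its part in the difference was not tested.

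Relative to all kept leukocytes the difference was not resolved. Members were 2.22%, 2.20%, 4.14% and 4.07% of kept cells in iKO and 4.19%, 4.73%, 2.32% and 14.6% in control (two-sided exact permutation p = 0.143, adjusted 0.214, n = 4). The control mean rested on sample 4, which gave 365 of the 593 control members: without it the difference was −0.587 percentage points, beside −3.29 with it. Without control sample 3 both shares passed adjustment (exact permutation, adjusted p = 0.0429, with differences of −4.67 and −17.1 percentage points). Gated macrophages of any kind were 37.3% ± 7.03 of kept iKO cells and 25.99% ± 12.4 of kept control cells (exact permutation p = 0.171, n = 4).

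**Figure D1:**
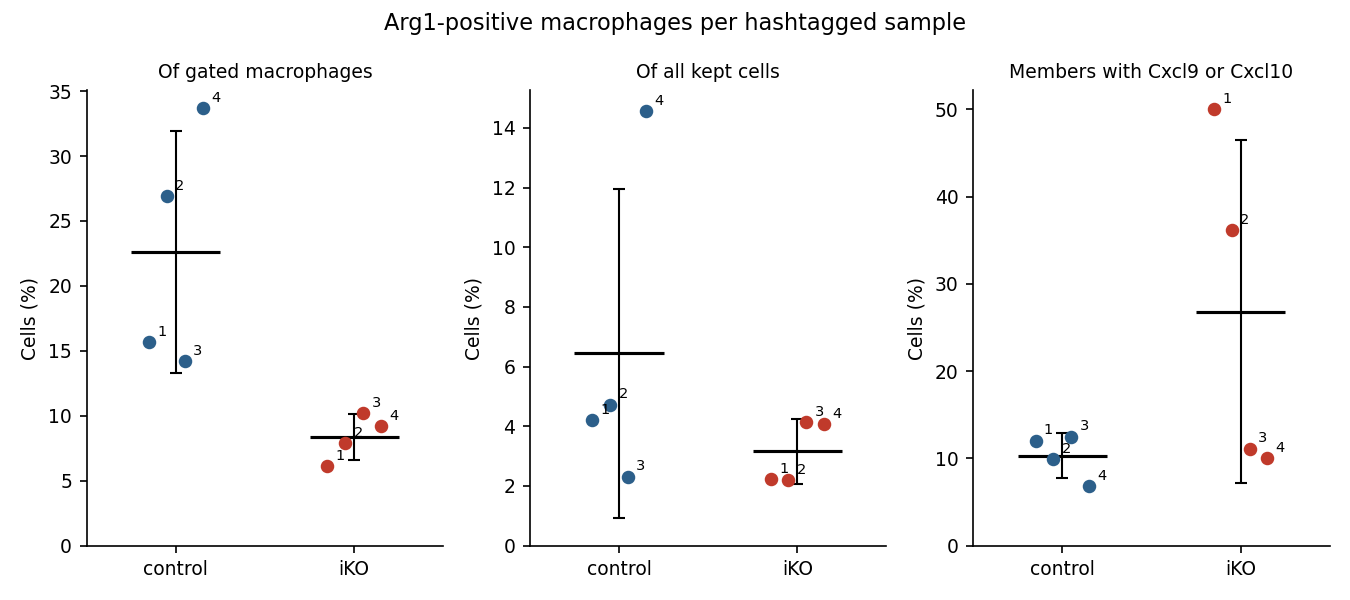
Share of Arg1-positive cells per hashtagged sample, in percent of gated macrophages and of all kept cells, for the 4 iKO and 4 control samples, and share of those cells that held at least 5 UMIs of Cxcl9 and Cxcl10; points are samples, numbered as in the text, lines are means and bars SD. In the first panel no iKO sample exceeds 10.2% and no control sample is under 14.2%, while the groups overlap in the other 2 panels.

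Next, gene expression in the members was compared with that in gated macrophages of the same samples that held no Arg1 UMI, with UMIs summed per sample and class and the sample as a block, so that each sample was its own control. Genes of hypoxia and glycolysis, of matrix remodelling and of lipid handling stood higher in the Arg1-positive cells, and monocyte, interferon gamma and antigen presentation genes stood lower. Of 9313 genes tested, 3840 (41.2%) passed an adjusted p of 0.05, 1903 (20.4%) higher and 1937 (20.8%) lower in Arg1-positive cells, and 27.5% moved in the same direction in all 8 samples. The median log2 difference of all genes was −0.03. The counts of each list below read against those shares, and they leave out Arg1, Mmp12, Vegfa, Ndrg1 and Inhba.

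Hypoxia and glycolysis was the most uniform list: 30 of 31 tested members were higher and none was lower, with a median log2 difference of 1.31. Bnip3, a mitochondrial receptor for mitophagy and a classic target of hypoxia-inducible factor, stood at 434, 437, 335 and 391 CPM in iKO members and at 376, 516, 527 and 412 CPM in control members, against 57.2 to 186 CPM in the Arg1-zero cells of the 8 samples (log2 difference 2.13 ± 0.14, SE, adjusted p = 1.7e-08). Every member sum lay above every Arg1-zero sum. Hilpda, which coats lipid droplets and blocks their breakdown, rose by 2.65 ± 0.18, Egln3, a prolyl hydroxylase that marks hypoxia-inducible factor for destruction, by 2.56 ± 0.23, Adm, the vasodilator adrenomedullin, by 2.74 ± 0.31, and Ero1a, an oxidase of the endoplasmic reticulum, by 2.05 ± 0.16 (log2, SE). The glucose transporter Slc2a1 was at 339.9 ± 49.0 CPM in members and 124 ± 35.2 CPM in Arg1-zero cells (SD, n = 8 samples), and the glycolytic enzymes Pgk1, Ldha and Gapdh rose by 1.60, 1.32 and 1.31 on the log2 scale. Hif1a, which encodes the oxygen-regulated subunit itself, rose by 0.56 ± 0.09. Car9, a carbonic anhydrase that is a hypoxia marker of carcinoma cells, was the 1 gene not called: it was at 3.68 CPM in members and 4.44 CPM in Arg1-zero cells (adjusted p = 0.573). Vegfa and Ndrg1 themselves were at 323 ± 64.5 and 282 ± 70.6 CPM in members and at 72.2 ± 44.8 and 69.0 ± 28.1 CPM in Arg1-zero cells (SD, n = 8), given as a description.

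The promoters of the genes in this list were also read. The list was chosen for hypoxia and glycolysis, so its motif share partly reflects that choice and is a description. The search took the 250 bases before any listed start of each gene, from RefSeq promoter entries of build GRCm38.p6, and looked on both strands for ACGTG and GCGTG, the core letters that hypoxia-inducible factor binds. At least 1 match was present in 27 of the 30 called genes with an entry (90.0%, of 32 called when Vegfa and Ndrg1 are counted), in 63.2% of the 7515 tested genes with an entry and in 41.5% of all 27025 genes of the table. The median GC content of those windows was 62.8%, 60.0% and 52.4% in the same order. Bnip3 and Pgk1 are shown as members with several matches, 5′ to 3′ on the gene's own strand, with the matches in capitals. In Bnip3 (chr7:138909507-138909756, minus strand) the 5 matches began 117, 108, 107, 99 and 35 bases before the start, and those at 108 and 107 are the same letters read on both strands. In Pgk1 (chrX:106186850-106187099, plus strand) they began 150 and 131 bases before it. A match is a run of letters, not a measured binding site, and Arg1 and Ndrg1 had no entry in the table.
Bnip3: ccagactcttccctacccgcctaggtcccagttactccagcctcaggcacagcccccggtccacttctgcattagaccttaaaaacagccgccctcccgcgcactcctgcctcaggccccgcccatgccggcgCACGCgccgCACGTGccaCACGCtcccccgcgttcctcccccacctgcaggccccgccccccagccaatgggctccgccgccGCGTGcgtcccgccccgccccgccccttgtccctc
Pgk1: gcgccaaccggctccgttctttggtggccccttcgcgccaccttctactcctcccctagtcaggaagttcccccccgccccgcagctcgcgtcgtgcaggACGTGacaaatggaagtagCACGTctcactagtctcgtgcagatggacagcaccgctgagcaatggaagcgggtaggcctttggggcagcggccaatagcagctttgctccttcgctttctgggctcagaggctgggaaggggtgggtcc

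Matrix and growth factor genes formed the second group, with 17 of 20 higher, 1 lower and a median of 1.28. Spp1, which encodes the secreted adhesion protein osteopontin, was the most abundant of them: 6127, 5420, 7633 and 5490.1 CPM in iKO members and 14715, 6444, 4617 and 6500.2 CPM in control members, against 400 to 1095 CPM in Arg1-zero cells (log2 difference 3.19 ± 0.20, adjusted p = 9.6e-09). Control sample 1 lay above the other 7 samples in Spp1. Spp1 RNA was also widespread as background, with a UMI in 17.9% of iKO and 34.3% of control T cells thinned to 5000 UMIs, against 71.5% and 77.7% of members. Pdpn, the mucin-like glycoprotein podoplanin, rose by 3.92 ± 0.16 and the collagenase Mmp13 by 3.10 ± 0.24, in 8 of 8 samples each. Thbs1 (thrombospondin 1), Fn1 (fibronectin) and Timp1, an inhibitor of metalloproteinases, rose by 1.71, 1.46 and 1.32, and the epidermal growth factor receptor ligand Areg by 2.33 ± 0.49 in 7 of 8 samples. Mmp9, a gelatinase abundant in neutrophils, was the exception and fell by 2.21, from 18.6 to 3.04 CPM.

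Lipid and lysosome genes rose in 16 of 19 cases with none lower (median 1.05). Ctsl, a lysosomal cathepsin, was at 2265 ± 405 CPM in members and 414 ± 126 CPM in Arg1-zero cells (SD, n = 8; log2 difference 2.54 ± 0.14). The cholesterol exporter Abca1 rose by 2.17, the fatty acid receptor Cd36 by 1.81, the lysosomal glycoprotein Gpnmb by 1.62, the lipid droplet coat Plin2 by 1.51 and the lipid receptor Trem2 by 0.66. Apoe, the lipid carrier common to many tumour macrophages, was not among them, at 1874 ± 707 and 1947 ± 1242 CPM (adjusted p = 0.344). Of the genes of oxidative stress, heme and iron, 10 of 15 were higher and 1 lower: the heme-degrading enzyme Hmox1 rose by 2.00, the metallothioneins Mt1 and Mt2 by 1.96 and 3.36, and ferritin heavy chain Fth1, already at 11576 CPM in Arg1-zero cells, by 1.26.

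Around Arg1 itself, the arginine and polyamine genes were mixed, with 7 of 14 higher and 1 lower (median 0.28). Nos2, the inducible nitric oxide synthase that competes with arginase for arginine, was higher together with Arg1: it was at 213, 191, 112 and 93.2 CPM in iKO members and at 182, 101, 103 and 41.3 CPM in control members, against 2.52 to 49.4 CPM in Arg1-zero cells (log2 difference 3.16 ± 0.30, adjusted p = 6.0e-07). Slc7a2, a cationic amino acid transporter that imports arginine, rose by 2.52 ± 0.26. Odc1, which turns ornithine into the polyamine putrescine, rose by 1.17, and the mitochondrial arginase Arg2 by 0.69. Amd1, which supplies the later steps of polyamine synthesis, fell by 0.57, and Ass1, which rebuilds arginine from citrulline, was not called (log2 difference 0.30, adjusted p = 0.169).

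In the list of cytokines and chemokines, 16 of 26 were higher and 3 lower (median 0.72). Cxcl3, a ligand of the neutrophil receptor Cxcr2, had the largest log2 difference among the genes named by rule, 4.31 ± 0.28 (adjusted p = 1.5e-08), Cxcl1 rose by 3.32 and Cxcl2 by 2.14, and the Ccr2 ligands Ccl2 and Ccl7 by 1.69 and 1.97. Il1a rose by 2.14 and Ptgs2, the inducible cyclooxygenase, by 0.97. Il1b, at 2306 ± 345 CPM in members, did not pass the test (log2 difference −0.10, adjusted p = 0.395). Checkpoint and suppressive genes were divided, with 5 of 14 higher and 4 lower: the adenosine-producing ectoenzyme Nt5e rose by 2.87 from 3.52 CPM, Cd274, which encodes PD-L1, by 0.67 and Il10 by 0.87, while the inhibitory lectin Siglece fell by 2.09.

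Genes often grouped with Arg1 as alternative activation did not move as 1 block: 6 of 10 were higher and 3 lower. Mrc1, the mannose receptor, rose by 1.96 ± 0.10 in 8 of 8 samples and the eosinophil chemokine Ccl24 by 1.69 ± 0.53, the latter in 5 of 8 samples with its call lost without iKO sample 3, iKO sample 4 or control sample 4 (highest adjusted p 0.0667) and with DESeq2 (adjusted p = 0.145). Chil3, a chitinase-like protein, fell by 0.80 and the eosinophil-associated ribonuclease Ear2 by 2.75. Resident-type genes were also divided, with 9 of 14 higher and 2 lower. The platelet factor Pf4 rose by 2.82 and the scavenger receptor Stab1 by 1.49, the fractalkine receptor Cx3cr1 fell by 2.39, and the complement gene C1qa was not called (775 ± 124 against 697 ± 164 CPM, adjusted p = 0.187).

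On the lower side, 12 of 15 monocyte genes fell and 2 rose (median −0.80). Plac8 fell by 1.27 and the integrin subunit Itgal by 2.32, while Ly6c2, the classical monocyte antigen, fell by 0.72 in 6 of 8 samples. F13a1, the clotting factor XIII subunit, rose by 1.49. Among the largest falls outside the lists were Ace and Adgre4, by 3.36 and 3.34, Hpgd, which degrades prostaglandins, by 3.18, and the neutrophil calgranulin S100a9, by 3.09 from 1992 ± 1530 CPM. The neutrophil marker list as a whole summed to 99.4 to 1223 CPM in members and 774 to 10827 CPM in Arg1-zero cells, and its part in the falls of S100a9 and Mmp9 was not tested.

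Interferon gamma genes were lower in 16 of 25 cases and higher in 3 (median −0.68), the 3 including Nos2 and Cd274. Ciita, the master regulator of class II genes, fell by 2.17 in 8 of 8 samples, from 73.2 ± 12.3 to 15.7 ± 5.91 CPM (SD, n = 8), the guanylate-binding protein Gbp5 by 1.21 and the chemokine Cxcl9 by 0.87. MHC class I genes fell in 17 of 20 cases and class II genes in 10 of 13, with small steps for the molecules themselves: H2-Ab1 fell by 0.44, Cd74 by 0.27, Tap1 by 0.53 and H2-K1 by 0.21. The type I interferon list had 17 of 43 lower, 1 higher (Rsad2, by 0.95), and a median of −0.25. Isg15, a ubiquitin-like protein that is among the most strongly induced, did not pass (log2 difference −0.04, adjusted p = 0.842).

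Regulators named for the Arg1 programme changed modestly, with 7 of 12 higher and 3 lower. Bhlhe40, a basic helix-loop-helix repressor, rose by 1.11, Mitf by 1.04, Rora by 1.04 and Crem by 1.00. Cebpb, whose product binds the Arg1 enhancer in macrophages, rose by 0.25 from an already high 1917 CPM, and Stat3 fell by 0.43.

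These counts moved little between samples. Leaving out each sample left 3435 to 3772 calls, and 76 of the 82 called genes among those tracked by name kept their call under every alternative that tested them. The other 6 were Ccl24, Il10, C1qb, Cd74, H2-K1 and Cebpb. Il10 lost its call without iKO sample 1, iKO sample 2 or control sample 4 and with at least 5 Arg1 UMIs (highest adjusted p 0.0807), and Cd74 without control sample 1 or 2 and with thinned cells. C1qb, H2-K1 and Cebpb lost theirs with thinned cells alone. With cells thinned to 5000 UMIs, 1738 of 6829 genes were called, 1672 of them also called without thinning.

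**Figure D2:**
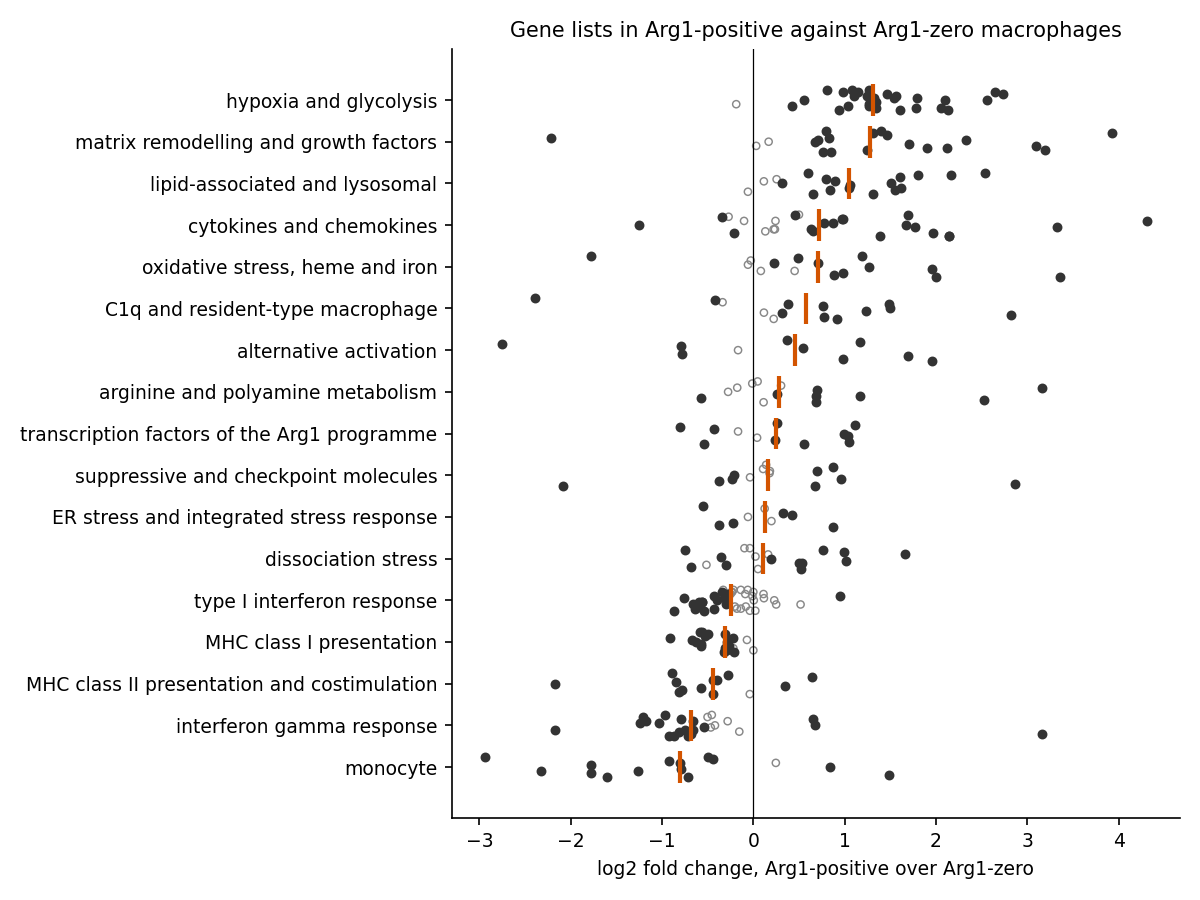
Log2 difference of each tested gene, by list, between Arg1-positive and Arg1-zero macrophages of the same 8 samples; filled points passed an adjusted p of 0.05, open points did not, and orange lines are list medians. The medians of the hypoxia, matrix and lipid lists sit above 1, and the monocyte list is lowest at −0.80.

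Levels were also read along the Arg1 range. Pooling the cells of each genotype by their Arg1 UMIs, Bnip3 was at 84.8 CPM in iKO macrophages without Arg1, 351 CPM in members with exactly 3 UMIs, 312 with 4 to 9, 392 with 10 to 29 and 445 with 30 or more. In control cells the same steps were 145, 268, 352, 352 and 488 CPM. Within the members these pooled steps did not rise evenly, and single samples differed: in iKO sample 4 they were 509, 221, 417 and 470 CPM. Hilpda went from 132 CPM without Arg1 to 1362 CPM at 30 UMIs or more in iKO and from 291 to 1267 CPM in control. In cells just under the cut, with 2 UMIs, Bnip3 was at 236 CPM in iKO and 272 CPM in control, in control about the level of members with exactly 3. Plac8 went the other way in control, from 2455 to 456 CPM, but in iKO it was 4129.7 CPM without Arg1 and 1803 to 2548 CPM in all 4 groups of members. In the pooled sums Isg15 kept its genotype level throughout, at 1470.0 to 2154 CPM in iKO and 209 to 351 CPM in control. Single samples overlapped: at exactly 3 UMIs, iKO sample 4 (9 cells) was at 230 CPM and control sample 1 (8 cells) at 307 CPM. These bins use the gene that chose the cells and pool samples, and 365 of the 593 control members came from control sample 4, so they are a description.

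**Figure D3:**
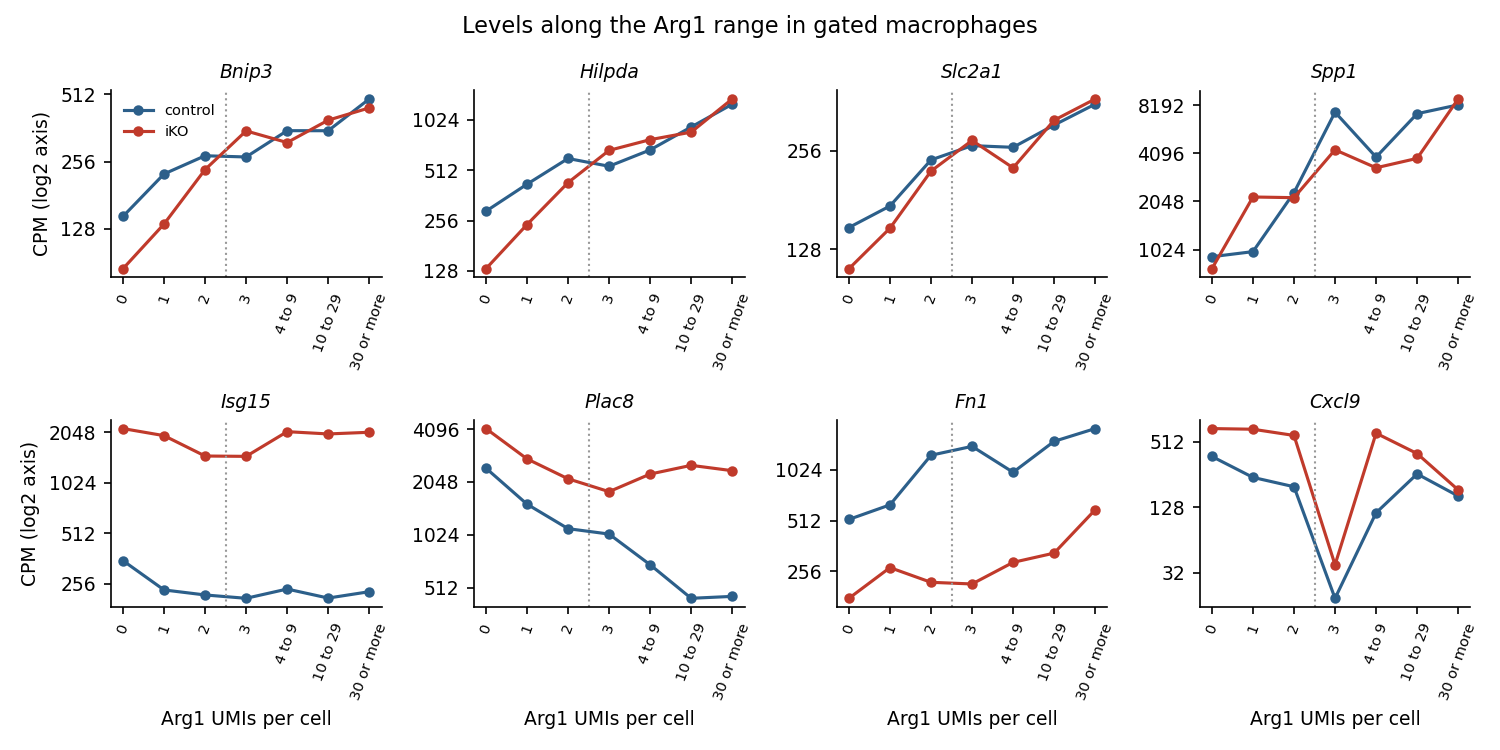
Level (CPM, summed over cells of a genotype) of Bnip3, Hilpda, Slc2a1, Spp1, Isg15, Plac8, Fn1 and Cxcl9 by the number of Arg1 UMIs in the cell, for iKO and control, on a log2 axis; the dotted line marks the rule of 3 UMIs. Bnip3, Hilpda, Slc2a1 and Spp1 are highest at 30 UMIs or more in both genotypes, and the pooled sums of Isg15 are separated by genotype at every step. The step of exactly 3 UMIs holds 32 iKO and 38 control cells.

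The members were then set against 3 other groups of gated macrophages with no Arg1 UMI in the same samples. These were 1792 cells with at least 5 UMIs of Cxcl9 and Cxcl10, 629 cells with at least 5 UMIs of C1qa, C1qb and C1qc, and 1127 monocyte-type cells with at least 3 UMIs of Vcan and Chil3, the latter 2 with at most 1 UMI of Cxcl9 and Cxcl10. The genes that defined a group were left out of its lists. Calls were 40.6% of 8493 genes against the Cxcl9/Cxcl10 group (19.9% higher, 20.7% lower), 33.8% against the C1q group (17.9% higher, 15.9% lower) and 47.8% against the monocyte group (25.5% higher, 22.2% lower). Hypoxia and glycolysis genes were higher in the members each time, in 29, 30 and 29 of 31 tested genes, with 0, 1 and 0 lower and medians of 1.36, 1.33 and 1.29. Bnip3 averaged 442 ± 65.8 CPM in members and 109 ± 57.9, 103 ± 35.0 and 109.7 ± 45.3 CPM in the 3 groups (SD, n = 8). Matrix genes were higher in 16, 17 and 16 of 20.

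Other lists gave different counts against the 3 groups. Lipid and lysosome genes were higher in 14 of 19 against the Cxcl9/Cxcl10 group and in all 19 against the monocyte group, but in 9 of 19, with 2 lower, against the C1q group. Type I interferon genes were lower in 42 of 43 against the Cxcl9/Cxcl10 group, higher in 23 of 43 with none lower against the C1q group, and 14 higher and 8 lower against the monocyte group. Isg15 followed that order, at 1925 ± 1296 CPM in the Cxcl9/Cxcl10 group, 1172 ± 1285 in members, 714 ± 646 in the monocyte group and 555 ± 595 in the C1q group (SD, n = 8). The Cxcl9/Cxcl10 group was chosen by interferon-responsive chemokines and the other 2 by their near absence, so this order is partly set by the choice of cells. MHC class II genes were lower in 11 of 13 with 1 higher against the Cxcl9/Cxcl10 group and in 8 of 13 with 2 higher against the C1q group, and higher in 6 of 13 with 3 lower against the monocyte group, with H2-Ab1 at 2169 CPM in members against 4068, 3951 and 1358 CPM. Among genes named by rule, Cxcl3 was higher against all 3 groups, by 5.63 ± 0.62, 3.99 ± 0.56 and 3.95 ± 0.55, and so was Pdpn against the first 2, by 4.45 and 3.17. Serpinb2, a plasminogen activator inhibitor, was highest by fold against the C1q group (5.05 ± 0.49) and Ch25h, which makes 25-hydroxycholesterol, against the monocyte group (4.99 ± 0.49). Calhm6 fell by 3.50 against the Cxcl9/Cxcl10 group, Tmem176b by 2.50 against the C1q group and Ace by 3.60 against the monocyte group.

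Genotype was compared next within the members alone. In iKO, interferon-stimulated genes, MHC class I genes and some monocyte genes were higher, fibronectin and connexin 43 were lower, and the hypoxia, arginine and lipid lists showed at most 1 call each. Of 7731 genes, 297 (3.84%) passed an adjusted p of 0.05, 216 (2.79%) higher and 81 (1.05%) lower in iKO, and 11.3% of genes did not overlap between the 4 iKO and 4 control samples. The median log2 difference of all genes was −0.01. The number of calls depended on single samples: it was 6 without iKO sample 1, 14 without iKO sample 2, 25, 18 and 24 without control samples 2, 3 and 4, and 467 without iKO sample 3. It was 449 with DESeq2.

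In the type I interferon list, 28 of 43 tested genes were higher and none lower, and all 43 had a log2 difference above 0 (median 1.78). Irf7, the transcription factor that amplifies interferon production, was, in sample order, at 942, 1209, 371 and 462 CPM for iKO and at 126, 143, 95.5 and 36.5 CPM for control (log2 difference 2.93 ± 0.47, SE, adjusted p = 0.018). Isg15 was at 2549, 3504, 757 and 869 CPM in iKO and at 474, 338, 382 and 137 CPM in control (2.54 ± 0.52, adjusted p = 0.0284). In both genes the groups did not overlap, and iKO samples 1 and 2 lay well above iKO samples 3 and 4. Ifi44 rose by 4.93, from 3.18 to 59.6 CPM, the 2-5A synthetase Oas3 by 2.89, the deconjugating protease Usp18 by 2.66 and Ifi27l2a by 1.77. Summed over the 43 genes, the list reached 20872, 25185, 9625 and 9932 CPM in iKO and 5639, 5073, 5658 and 2598 CPM in control. The direction held and the calls did not: with each sample left out in turn all 43 genes stayed above 0, with medians of 1.36 to 2.04, but 0 were called without iKO sample 1, 2 without iKO sample 2, and 3, 1 and 4 without control samples 2, 3 and 4, beside 28 to 36 without any of the other 3.

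A sequence search was made for this list as well, on both strands of the same windows, for the repeat bound by interferon-activated factors: GAAA, any 2 bases, then GAAA. It was present in 10 of the 19 called genes with an entry (52.6%, of 28 called), in 3.74% of the 6286 tested genes with an entry and in 3.46% of all genes. The list was chosen for its response to interferon, so this share too partly reflects that choice. Isg15 (chr4:156200819-156201068, minus strand) and Oas3 (chr5:120777660-120777909, minus strand) are shown as called genes that hold it. Isg15 had 3 overlapping matches that began 78, 72 and 66 bases before the start, and Oas3 had 1 that began 75 bases before it.
Isg15: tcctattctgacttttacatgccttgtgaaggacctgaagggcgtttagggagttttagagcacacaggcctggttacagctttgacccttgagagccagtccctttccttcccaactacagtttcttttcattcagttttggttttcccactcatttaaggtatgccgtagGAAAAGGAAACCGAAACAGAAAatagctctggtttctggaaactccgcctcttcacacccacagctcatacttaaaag
Oas3: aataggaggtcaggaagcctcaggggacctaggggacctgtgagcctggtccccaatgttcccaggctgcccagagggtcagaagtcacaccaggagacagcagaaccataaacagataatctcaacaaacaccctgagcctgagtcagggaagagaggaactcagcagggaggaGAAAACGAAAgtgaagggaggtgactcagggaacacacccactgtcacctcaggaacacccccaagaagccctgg

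Interferon gamma targets were higher in 10 of 23 and lower in none (median 1.68), and MHC class I genes in 12 of 20 with none lower (median 1.10). The GTPases Iigp1 and Igtp rose by 2.67 and 2.33. B2m, the invariant chain of class I molecules, was at 5107, 5319, 2943 and 3212 CPM in iKO and at 2563, 2459.6, 2185 and 1769 CPM in control (log2 difference 0.89 ± 0.21, adjusted p = 0.0402), H2-K1 rose by 1.12, H2-Q6 by 2.17 and the peptide transporter Tap1 by 1.34. Of the 13 class II and costimulation genes, Cd40 alone was called (log2 difference 1.93), and H2-Ab1 stood at 1945 ± 415 and 2259 ± 582 CPM (adjusted p = 0.579). Without iKO sample 1 or 2, or without control sample 2, 3 or 4, the interferon gamma list had 0 calls and the class I list 0 or 1. The chemokines Cxcl9 and Cxcl10 did not pass the test: Cxcl10 was at 1834, 1321, 418 and 513 CPM in iKO and at 151, 321, 670.4 and 146 CPM in control (adjusted p = 0.123). Members with at least 5 UMIs of Cxcl9 and Cxcl10 made up 50.0%, 36.2%, 11.1% and 10.0% in iKO and 12.05%, 9.88%, 12.5% and 6.85% in control (exact permutation p = 0.229, n = 4), beside 56.3%, 44.9%, 18.0% and 18.7% and 25.1%, 13.7%, 8.90% and 16.2% of the Arg1-zero cells.

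Among monocyte genes 4 of 14 were higher and 1 lower in iKO members. Ly6c2 was at 2024, 2833, 904 and 636 CPM in iKO and at 202, 202, 272 and 92.6 CPM in control (log2 difference 3.08 ± 0.48, adjusted p = 0.018), with no overlap. The call was lost without iKO sample 1, control sample 2 or control sample 3 (highest adjusted p 0.0631). Ly6c2 was also more frequent in iKO T cells: thinned to 5000 UMIs, 72.3% ± 14.1 of them held a UMI, against 43.2% ± 6.59 of control T cells (SD, n = 4), beside 78.7% and 28.1% of members. Plac8 rose by 1.79 and Cd300e by 3.08, and F13a1 fell by 0.98. The markers of other cells moved with genotype too. The 5 monocyte markers summed to 2866 to 7476 CPM in iKO members and 1772 to 2774 CPM in control members. Ly6c2 and Plac8 made up most of that sum, while Vcan was at 134 to 433 CPM in iKO and 390 to 724 CPM in control, Chil3 at 101 to 163 and 119 to 692 CPM, and Ccr2 overlapped. Over the same samples the 7 T cell markers summed to 70.9 to 79.5 against 32.4 to 40.2 CPM and the 5 melanoma markers to 19.3 CPM or more against 7.41 to 12.7 CPM. Cd3e was at 0 by the gate, Cd8a was at 11.1 to 11.4 against 1.005 to 2.89 CPM, and Gzma stood at 112 CPM in iKO sample 1 and at 0 to 3.43 CPM elsewhere. The part of these cells or of their free RNA in the genotype differences was not tested. Ccl5, a T cell and NK cell chemokine as well as a macrophage one, rose by 1.45 on the log2 scale. It lost its call with thinned cells (log2 difference 0.25, adjusted p = 0.837), when the 4 members with a doublet score above 0.25 were removed (1.18, adjusted p = 0.128), and when any 1 of iKO samples 1 and 2 and control samples 2, 3 and 4 was left out.

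Macrophage genes gave few further calls. Il18 rose by 1.23, the Tim-3 ligand Lgals9 by 0.96, Adgre1 by 0.93 and Ms4a7 by 0.97. Tnf was at 81.2 ± 26.5 and 46.2 ± 6.69 CPM (SD, n = 4) and PD-L1 (Cd274) at 195 ± 77.4 and 123 ± 17.7 CPM, with adjusted p of 0.063 and 0.163. The lower side was led by Gja1, the gap junction protein connexin 43: 1.40, 2.77, 0.968 and 5.48 CPM in iKO and 17.3, 40.1, 29.1 and 31.0 CPM in control, without overlap (log2 difference −3.28 ± 0.39, adjusted p = 0.00889). The iKO values of Gja1 lay near the floor, under the 20 CPM or so below which depth limits genes in members, so its fold is imprecise. Of the 28 called genes tracked by name, Gja1 was the 1 that kept its call under every alternative that tested it (14, with thinned cells the exception because it was not tested there), and none of the other 27 reversed. Fn1 was at 299.6, 319, 649 and 523 CPM in iKO and at 1403, 1061, 1231 and 1833 CPM in control, again without overlap (−1.63 ± 0.25, adjusted p = 0.018). Fn1 lost its call without iKO sample 1, iKO sample 2 or control sample 3 (highest adjusted p 0.056). The heat shock gene Hspa1b fell by 1.06, Bhlhe40 by 0.76 and Ddit4, an inhibitor of mTOR that hypoxia induces, by 0.83.

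In the hypoxia, arginine, alternative activation, lipid and oxidative stress lists, the shares called by genotype were at or below the 3.84% of all genes. In hypoxia and glycolysis 0 of 32 were higher and 1, Ddit4, was lower (median −0.08). The list summed to 26126, 27108, 25202 and 23279 CPM in iKO members and to 25882, 27189, 24633 and 21865 CPM in control members, against 8181 to 12926 CPM in Arg1-zero cells of the 8 samples. These sums over 34 genes include Vegfa and Ndrg1, which were chosen for the population, so the gap to Arg1-zero cells is a description. Bnip3 and Slc2a1 had log2 differences of −0.19 ± 0.14 and −0.15 ± 0.14, and Egln3 of −0.31 ± 0.22. Vegfa did not overlap between groups (283, 296, 258 and 249 against 385, 434, 353 and 322 CPM) but did not pass adjustment (log2 difference −0.46 ± 0.12, adjusted p = 0.0627). No gene was called among 13 arginine and polyamine genes, 10 alternative activation genes, 19 lipid and lysosome genes and 14 oxidative stress genes. Nos2 stood at 152 ± 58.5 and 107 ± 57.8 CPM, Spp1 at 6168 ± 1027 and 8069 ± 4516, Mrc1 at 368 ± 256 and 615 ± 183, Mmp12 at 376 ± 222 and 262 ± 158, Inhba at 317 ± 220.0 and 359 ± 245, and Thbs1 at 1385 ± 364 and 2113 ± 301 CPM (SD, n = 4). A missed threshold at this spread does not show equal levels.

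**Figure D4:**
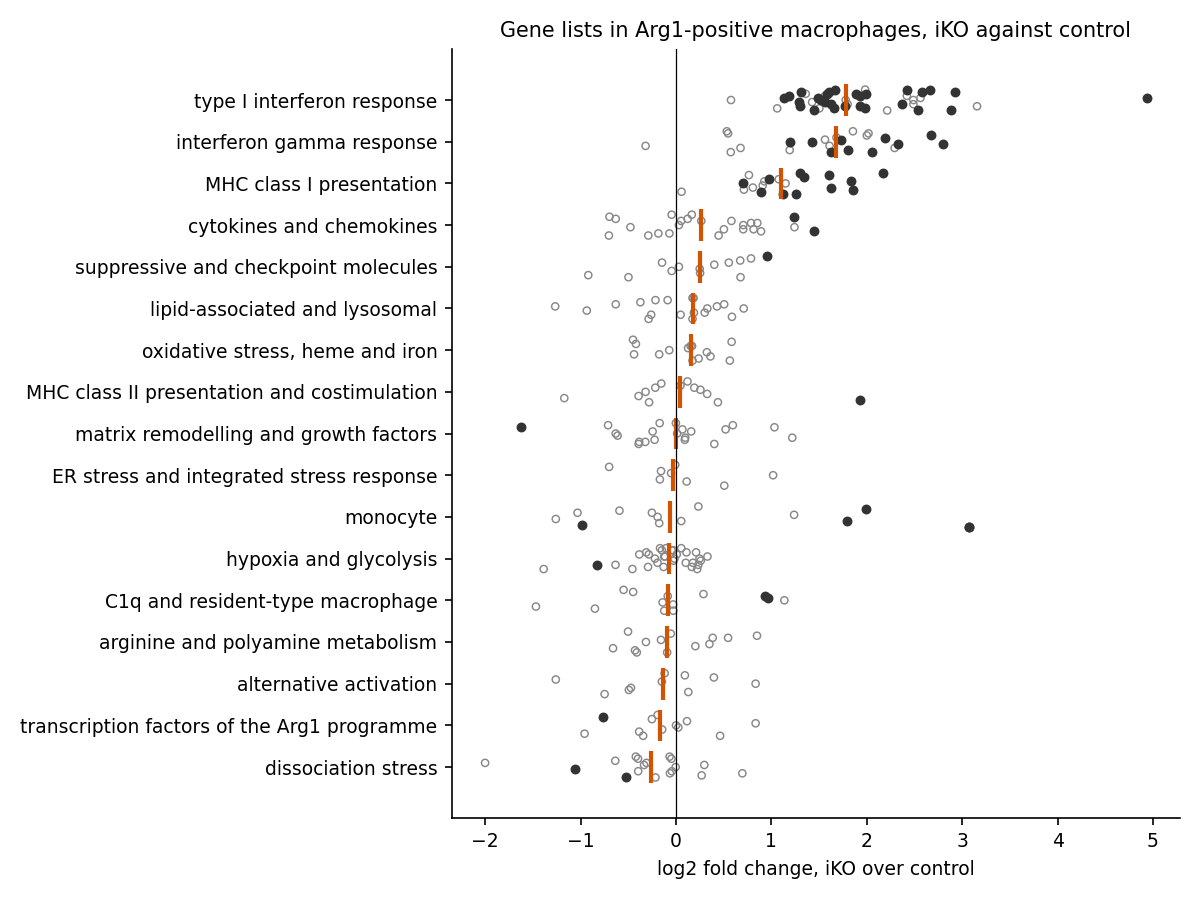
Log2 difference between iKO and control members for the genes of each list; filled points passed an adjusted p of 0.05, open points did not, and orange lines are list medians. All genes of the type I interferon and MHC class I lists lie above 0, with medians of 1.78 and 1.10. In the interferon gamma list 22 of 23 do, with a median of 1.68, and the hypoxia list is centred near 0.

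**Figure D5:**
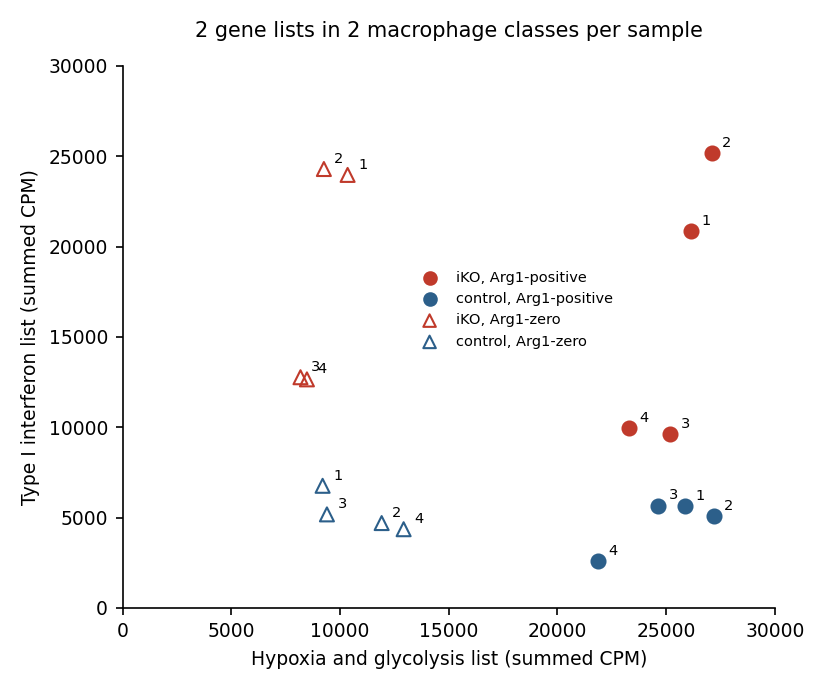
Summed CPM of the hypoxia and glycolysis list against that of the type I interferon list, 1 point per sample and class, for Arg1-positive and Arg1-zero macrophages. The hypoxia sums include Vegfa and Ndrg1, which were chosen for the population. Arg1-positive sums lie at 21865 CPM or more on the hypoxia axis in every sample, while on the interferon axis the iKO sums lie above the control sums in both classes.

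A direct test asked whether the genotype difference itself differed between Arg1-positive and Arg1-zero cells. Of 9869 genes, 1 (0.0101%) passed, and 839 had an unadjusted p under 0.05. With DESeq2 there were 10. The gene was Cxcl3: in Arg1-zero cells it was at 10.1, 34.5, 28.1 and 25.6 CPM in iKO and 120, 209, 75.1 and 125 CPM in control, while in members it was at 455, 1379, 602 and 1012 CPM in iKO and 1510, 2031, 1022 and 1055 CPM in control. The groups did not overlap in Arg1-zero cells and overlapped in members, and the 2 log2 differences differed by 1.74 ± 0.21 (SE, adjusted p = 0.0066). The call was lost without iKO sample 2 (adjusted p = 0.0712) and with thinned cells. No interferon gene passed this test, and the type I interferon list summed to 23966, 24292, 12766 and 12648 CPM in Arg1-zero iKO cells and 6755, 4692, 5173 and 4352 CPM in Arg1-zero control cells, a ratio of group means of 3.51 beside 3.46 in members. The difference of the 2 genotype differences was above 0 in 25 of 43 type I interferon genes (median log2 0.06), in 25 of 26 interferon gamma genes (median 0.52) and in 31 of 34 hypoxia and glycolysis genes (median 0.40), with a median of −0.01 over all genes and no single gene of these lists called.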

How the data were processed

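The data are droplet single-cell RNA counts of leukocytes sorted from melanomas, in 8 hashtagged samples, 4 per genotype. The deposited matrices hold the authors' raw UMI counts per gene and barcode, made with Cell Ranger 7.1.0 on build GRCm39 per the submitters' processing notes. The treatment of intronic reads and the rule that tied barcodes to hashtags were not given in the sources used here. No normalization had been applied.

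Cells were kept and gated as stated above, on raw counts, with no clustering. Counts were summed per sample and class, and classes under 20 cells were not fitted. Genes were filtered with filterByExpr, scaled by TMM and tested with edgeR 4.0.16 (quasi-likelihood, limma 3.58.1, R 4.3.3), with Benjamini-Hochberg adjustment over all genes and a threshold of 0.05. CPM of single genes and lists are TMM-scaled, and CPM of cell type markers and of Arg1 steps are not. Shares were tested by two-sided exact permutation over samples (scipy 1.17.1). Doublets were scored with Scrublet in scanpy 1.11.5. The steps were tested on simulated data: of 200 genes changed 4-fold, 89.5% were recovered in the genotype comparison of 7742 genes. Of the genes called there, 5.29% were false. The simulated samples were independent and had 1 fixed spread for all genes. Real iKO members varied widely, with a type I interferon sum of 16403 ± 7851 CPM (SD, n = 4). The recovered share therefore does not measure the power of the real comparison.

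Members and gene lists were chosen with earlier results of these data known. Genes named are list members and, beyond the lists, the 10 largest rises and falls per comparison among called genes of at least 20 CPM whose groups did not overlap or whose 8 samples moved alike. Clec7a, Rigi and Lilrb4b were not analysed here. The alternatives were DESeq2 1.42.0, its size factors, no filter, Arg1 cuts of 2 and 5, stricter cell filters, thinning to 5000 UMIs, doublet removal, a replicate block and leaving out each sample. Binomial intervals cover counting error only. Replicate numbers did not pair the samples: same-numbered samples deviated with correlations of 0.335, 0.117, −0.123 and 0.518.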

Additional observations from a re-analysis of the deposited data

Results flagged for a closer look

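Within groups of 4 samples, 104 sets of values were tested for 1 sample far from the other 3, and 5 were found, near the 1 in 20 that chance flags. Control sample 1 stood apart from the other control members in 3 genes: Cxcl9 was at 644.7 CPM there and at 63.3 to 109 CPM in the others, Hif1a at 462.47 and 268 to 274 CPM, and Iigp1 at 24.85 and 20.4 to 21.1 CPM. Inhba was at 644.04 CPM in iKO sample 1 and at 169 to 236 CPM in the other iKO samples. Thbs1 was at 1661.08 CPM in control sample 4 and at 2254 to 2270 CPM in the other control samples. The genotype difference of Cxcl3 differed between Arg1-positive and Arg1-zero macrophages by 1.742 on the log2 scale, by the interaction test given above.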

How the results depend on the processing

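For genotype within members, 297 genes were called. DESeq2 called 449, no low-count filter 495, thinned cells 122, and leaving out 1 sample 6 to 467, while a replicate block, which the numbers do not justify, called 441. Arg1-positive against Arg1-zero cells gave 3840 calls, 1738 with thinned cells and 3435 to 3772 with 1 sample left out. The interaction gave 1 call, 10 with DESeq2, 143 without the filter, 2 with Arg1 of at least 5 UMIs, 0 with thinned cells (458 at an unadjusted p under 0.05) and 0 to 9 with 1 sample left out. With 1 sample left out, the differences in share ran from −4.67 to −0.587 percentage points of kept cells, from −17.1 to −10.6 of gated macrophages and from 8.77 to 22.1 for Cxcl9/Cxcl10 members. Against the other 3 groups, leaving out 1 sample left 3024 to 3488 calls for Cxcl9/Cxcl10 cells, 2431 to 2858 for C1q cells and 3607 to 4088 for monocyte-type cells.

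Uncalled differences of named genes changed sign as follows, and the cause was not tested. By genotype, Cxcl9 came to −0.00466 without iKO sample 1 (range with 1 sample left out −0.00466 to 1.87), Inhba to 0.0347 without iKO sample 3 and 0.378 without control sample 1 (−0.787 to 0.378), and Spp1 to 0.0787 without control sample 1 (−0.581 to 0.0787). Against Arg1-zero cells, C1qa came to −0.092 with thinned cells, and Isg15 to 0.00791 with Arg1 of at least 5 UMIs, 0.0584 with thinned cells, 0.0995 without control sample 4 (range −0.11 to 0.0995) and 0.023 when cells with up to 2 Arg1 UMIs joined the comparison group. Depth limits genes under about 20 CPM in members, since the smallest sample held 54 of them.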

Other observations

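Arg1 was not confined to the gated macrophages. Of 1453 kept cells with at least 3 Arg1 UMIs, 490 lay outside the gate. Cd3e was present in 201 of them, Lyz2 was under 5 UMIs in 158, Csf1r was at 0 in 148, Cd79a was present in 54 and Flt3 in 24, and Mki67 and Top2a together exceeded 2 UMIs in 45, with some cells failing several conditions. Failing only 1 condition were 137 cells for Cd3e, 81 for Csf1r and 78 for Lyz2.

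Stress genes showed no common direction in Arg1-positive against Arg1-zero cells. Of 18 genes of the dissociation list, 8 were higher and 4 lower (median log2 difference 0.11), with the heat shock gene Hspa1b at 293 ± 128 CPM in members and 160 ± 93.4 CPM in Arg1-zero cells (SD, n = 8). Genes of endoplasmic reticulum stress were 3 higher and 3 lower of 9. By genotype within members, 0 of 18 dissociation genes were higher and 2 lower in iKO, and 0 of 8 endoplasmic reticulum stress genes were called.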
